A study of Homo sapiens with 11 samples.

Results

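The 31 genes described here make and remove reactive oxygen in the cell: the sensor pair NFE2L2 and KEAP1, 4 enzymes of the NRF2 response and of haem breakdown (NQO1, HMOX1, HMOX2, SRXN1), 7 genes of the glutathione system, 4 thioredoxin genes, 6 peroxiredoxins, the superoxide dismutases with catalase, and 5 genes of the phagocyte NADPH oxidase. They were chosen by symbol from the 60656 rows of a gene table, by a rule that names symbols and no values, and every symbol was found. The choice was made with earlier results of these data known. A total of 30 reached a level of 1 TPM (transcripts per length, scaled to the same library total) in at least 3 of the 9 RNA libraries and entered the tests. The remaining gene, CYBB, did not.

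All RNA libraries came from Z138, a human mantle cell lymphoma line (a B cell cancer), and from a single clone of it, Z138 # 7, that carries Cas9-RFP and 2 guides against DNMT3A under doxycycline control. DNMT3A is a de novo DNA methyltransferase. There were 3 groups of 3 libraries: uninduced cells with no treatment, cells labelled DNMT3A KO after doxycycline at 2 ng/mL for 5 days, and the same for 7 days. The series' design text describes the 3 biological replicates as vials frozen apart and induced on separate days, and each library pools RNA from 2 technical duplicates; it does not say that an uninduced library shares its vial or day with the induced libraries of its number. All 3 groups carry the Cas9 and guide constructs, and the series lists no library from cells given doxycycline without guides. Doxycycline, Cas9 activity and the loss of DNMT3A therefore cannot be told apart. A separate list of 482 chromatin peaks rests on 1 untreated Z138 WT library, with 1 library of clone 7 after 7 days of doxycycline at 2 ng/mL as its control.

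In resting cells KEAP1 holds the transcription factor NRF2, the product of NFE2L2, for degradation. Oxidants or electrophiles modify KEAP1, and NRF2 then binds antioxidant response elements with a small MAF partner and raises genes for glutathione synthesis, thioredoxin reduction, quinone reduction and iron storage. Peroxides are removed along parallel routes, by glutathione peroxidases fed from reduced glutathione and by peroxiredoxins fed from thioredoxin, and both routes draw on NADPH. The phagocyte NADPH oxidase does the reverse: it spends NADPH to make superoxide, through a membrane core of CYBB (the catalytic subunit NOX2) and CYBA and a cytosolic set that includes NCF1, NCF4 and a RAC protein. Phagocytes carry it at high level, and B cells use it at lower level.

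Promoter sequences, from 250 bases before to 50 bases after an annotated start in the gene's direction, were found in RefSeq (GRCh38.p14) for 22 of the 31 genes, with 34 starts among them. They are shown for 5 genes that stand for the oxidase and NRF2 sides of the group: NCF1 (chr7:74773761-74774060, plus strand), CYBB (chrX:37779809-37780108, plus strand), TXNRD1 (chr12:104215529-104215828, plus strand), GCLM (chr1:93909381-93909680, minus strand) and NQO1 (chr16:69726511-69726810, minus strand). Capitals mark GAGGAA, the core bound by the B cell and myeloid factor PU.1, in NCF1 and CYBB, and TGACNNNGC, the core of the antioxidant response element, in TXNRD1, GCLM and NQO1, on either strand.
NCF1: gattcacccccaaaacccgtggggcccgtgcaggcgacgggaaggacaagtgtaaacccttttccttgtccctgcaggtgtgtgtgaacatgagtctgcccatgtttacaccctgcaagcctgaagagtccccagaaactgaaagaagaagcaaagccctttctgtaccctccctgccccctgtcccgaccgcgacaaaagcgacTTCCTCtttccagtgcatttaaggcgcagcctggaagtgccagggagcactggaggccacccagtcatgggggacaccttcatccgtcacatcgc
CYBB: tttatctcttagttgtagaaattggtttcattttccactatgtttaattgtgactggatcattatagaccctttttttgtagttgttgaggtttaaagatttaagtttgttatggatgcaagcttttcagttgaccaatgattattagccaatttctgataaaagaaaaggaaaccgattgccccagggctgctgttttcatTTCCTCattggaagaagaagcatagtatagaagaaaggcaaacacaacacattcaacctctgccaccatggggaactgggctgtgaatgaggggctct
TXNRD1: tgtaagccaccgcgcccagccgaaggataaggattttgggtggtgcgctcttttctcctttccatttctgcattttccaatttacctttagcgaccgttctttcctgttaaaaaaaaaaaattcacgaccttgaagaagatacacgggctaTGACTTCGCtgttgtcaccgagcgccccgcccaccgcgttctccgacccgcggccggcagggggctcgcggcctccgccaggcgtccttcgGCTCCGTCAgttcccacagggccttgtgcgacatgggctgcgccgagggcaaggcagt
GCLM: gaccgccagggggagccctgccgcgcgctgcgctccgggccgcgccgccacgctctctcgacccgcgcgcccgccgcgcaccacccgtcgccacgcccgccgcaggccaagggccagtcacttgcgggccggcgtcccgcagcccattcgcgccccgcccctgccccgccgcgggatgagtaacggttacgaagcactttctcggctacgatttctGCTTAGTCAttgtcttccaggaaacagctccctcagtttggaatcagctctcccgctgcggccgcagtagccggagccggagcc
NQO1: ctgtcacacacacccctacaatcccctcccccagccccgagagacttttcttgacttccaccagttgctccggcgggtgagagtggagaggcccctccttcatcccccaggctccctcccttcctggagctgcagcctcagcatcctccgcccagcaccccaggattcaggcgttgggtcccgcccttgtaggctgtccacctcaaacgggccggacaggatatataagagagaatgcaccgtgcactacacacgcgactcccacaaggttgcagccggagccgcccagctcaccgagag
The oxidase pair each held 1 PU.1 core on the minus strand, read as TTCCTC, with its nearest base to the 5′ end at -45 from the start in NCF1 and at -48 in CYBB. GCLM held 1 response element core at -34, and this TXNRD1 start held a pair, at -99 and -8. A further TXNRD1 start, at chr12:104286782-104287081 and not shown, held a match at -102. Which start these cells use was not tested. No match was present in the NQO1 window, and sequence further upstream was not searched for any gene. Among all 34943 RefSeq promoters of this length, 13.3% held the response element core and 27.9% held the PU.1 core; among the 34 promoters of the group the shares were 11.8% (4 promoters, of GCLM, KEAP1 and TXNRD1) and 20.6% (7 promoters, of CYBB, NCF1, SOD2, SRXN1 and TXNRD2). A match of letters is a description and shows no binding.

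The targeted gene was examined before any other. DNMT3A was at 10.1, 9.71 and 10.4 TPM in uninduced replicates 1, 2 and 3, 18.9, 10.9 and 10.0 after 5 days, and 11.0, 9.24 and 10.0 after 7 days. Day 5 replicate 1 stood above the other 8 libraries, and the groups overlapped. Short insertions and deletions made by Cas9 need not lower an RNA level, so this level does not check the labels. The B cell identity of the line was visible: 11 of 12 B cell and mantle cell lymphoma markers passed the expression filter, with a summed level of 1832 to 2251 TPM per library, and CD5 was listed at 0 in all 9. Of 15 phagocyte markers none passed the filter and 6 (ELANE, PRTN3, FCGR1A, S100A8, S100A9, S100A12) were listed at 0 throughout, with a summed level of 0.149 to 0.938 TPM. All 8 erythroid markers were listed at 0, and of the 10 T or NK cell and 8 epithelial or fibroblast markers only CD3G and COL1A1 passed. TPM values have the same total in every library, so the sequencing depth behind them is unknown and none of the values carries a counting interval; levels are shares of the messenger RNA pool per transcript length, and fewer cells with a transcript cannot be told apart from less of it per cell.

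TPM divides by transcript length, so levels can be ranked between genes. The group made up 0.372% to 0.418% of all TPM in the 9 libraries. The peroxiredoxin PRDX1 led, with a mean over the 9 libraries of 739 TPM, followed by PRDX2 at 417, GPX4 at 336, SOD1 at 323 and TXN at 312 TPM. PRDX1 and PRDX2, the abundant cytosolic peroxiredoxins, carried 58.1% to 63.7% of the summed peroxiredoxin TPM. The lowest of the 30 were GCLC at 12.6, HMOX1 at 9.02, NQO1 at 6.65, SRXN1 at 6.18, NCF4 at 6.15, GCLM at 5.47 and the mitochondrial thioredoxin reductase TXNRD2 at 4.16 TPM. The steadiest genes across the libraries were PRDX6, TXN2 and PRDX2, with coefficients of variation of 4.35%, 4.72% and 4.74%, while NQO1 and HMOX1 reached 36.0% each and SRXN1, whose row switched between high and low libraries, 93.6%.

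**Figure D1:**
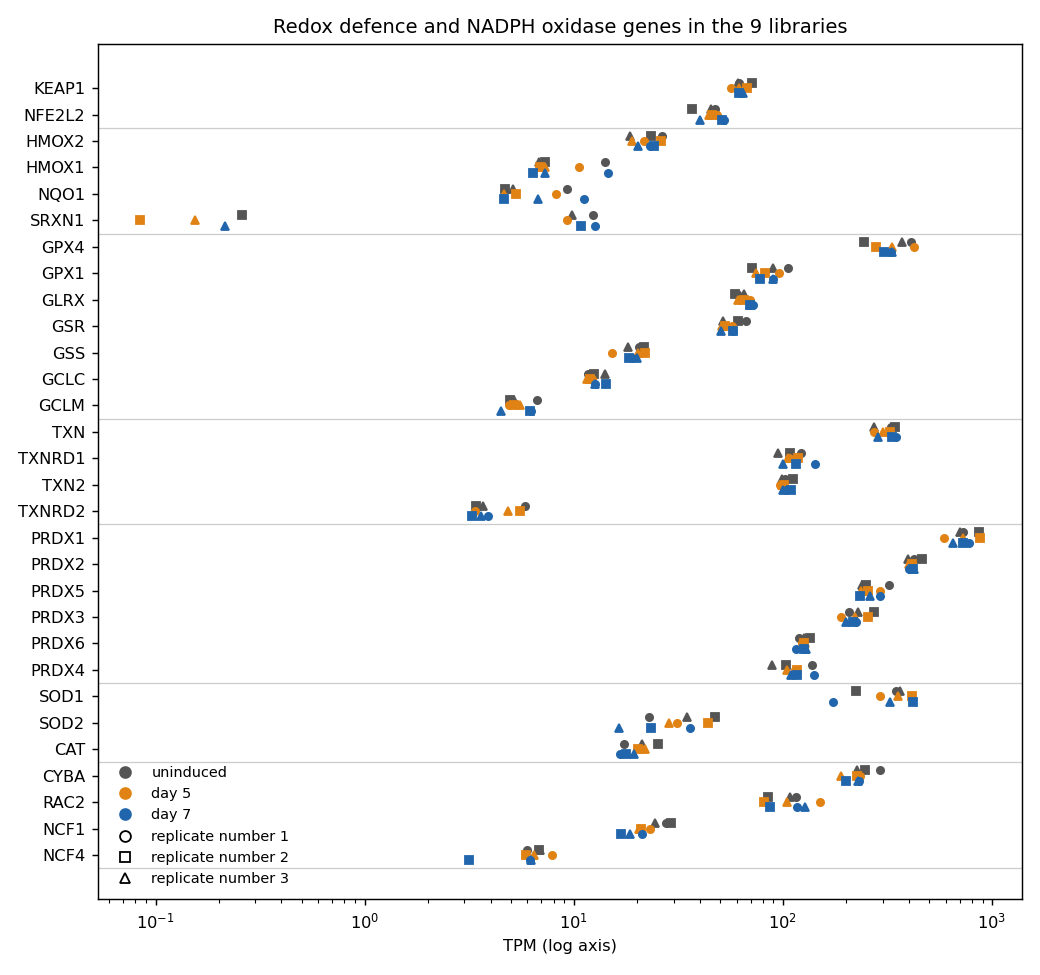
Level in TPM (log axis) of the 30 genes past the expression filter, ordered by role, with 1 point per library; colour gives the group and shape the replicate number. Peroxiredoxins, GPX4, SOD1 and TXN have means of 114 TPM or more, and the SRXN1 points split into 5 at 9.32 TPM or more and 4 at 0.260 TPM or less.

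The induction comparisons ask whether 5 or 7 days of doxycycline changed these genes. None of the 30 tested genes passed the threshold (limma on log2(TPM + 1), Benjamini-Hochberg adjusted p under 0.05 over 15045 genes) at day 5, where 0.00665% of all genes were called, at day 7 (0.00% called), for day 7 against day 5 (0.00665%) or for both days together against uninduced (0.00665%). The first, the second and the last of these share their uninduced libraries. At an unadjusted p under 0.05, the count was 1 of 30 at day 5, 1 at day 7 and 1 for both days together, NCF1 in each, and 0 for day 7 against day 5; among all genes that threshold took 1.99%, 2.24%, 2.16% and 1.68%. Groups that did not overlap at all were seen for 1 of 30 genes at day 5 (NCF1; 5.56% of all genes), 2 at day 7 (NCF1 and GLRX; 6.13%), 2 for day 7 against day 5 (CAT and GCLC; 4.31%) and 1 for both days together (NCF1; 1.26%). A p that misses the threshold does not show that a gene held its level.

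NCF1 encodes the cytosolic organiser subunit of the NADPH oxidase, which is phosphorylated and carries the cytosolic complex to the membrane. It was at 27.5, 29.2 and 24.6 TPM in the uninduced libraries, 23.2, 21.0 and 20.4 TPM after 5 days, and 21.1, 16.8 and 18.6 TPM after 7 days. All 6 induced libraries lay below all 3 uninduced ones, while day 5 and day 7 overlapped. The means were 27.1 ± 2.33 (SD, n = 3), 21.5 ± 1.44 and 18.8 ± 2.13 TPM. The difference from uninduced was -0.32 at day 5 on the log2(TPM + 1) scale (SE 0.127, 95% interval -0.60 to -0.03, adjusted p = 1.00 by limma) and -0.50 at day 7 (SE 0.127, interval -0.79 to -0.22, adjusted p = 1.00). NCF1 did not pass the test after adjustment. A lower level with no overlap of any induced with any uninduced library was seen in 1 of 30 genes of the group and in 0.884% of all genes.

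NCF1 has near-identical duplicated copies, NCF1B and NCF1C, so reads can be assigned to the wrong row and the NCF1 value is uncertain. NCF1B was at 11.0, 8.47 and 8.83 TPM uninduced, 10.2, 5.08 and 8.48 at day 5, and 0, 10.4 and 6.89 at day 7. NCF1C was at 13.3, 13.2 and 14.2 TPM uninduced, 10.4, 12.2 and 8.41 at day 5, and 14.9, 15.9 and 12.2 at day 7. Neither copy separated all induced from all uninduced libraries, and the NCF1 row held between 39.0% (day 7 replicate 2) and 58.6% (day 7 replicate 1) of the sum of the 3 rows. The sum of the 3 rows, which still depends on their transcript lengths where reads are split among them, was 51.8, 50.8 and 47.6 TPM uninduced, 43.8, 38.3 and 37.3 at day 5, and 36.0, 43.1 and 37.7 at day 7, with its lowest value in day 7 replicate 1, the library where NCF1B was listed at 0. It too was lower in all 6 induced libraries, with means of 50.1 ± 2.20, 39.8 ± 3.49 and 38.9 ± 3.73 TPM (SD, n = 3). In the sum the differences of log2(TPM + 1) were -0.33 at day 5 and -0.36 at day 7, with adjusted p = 1.00 by limma for each.

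**Figure D2:**
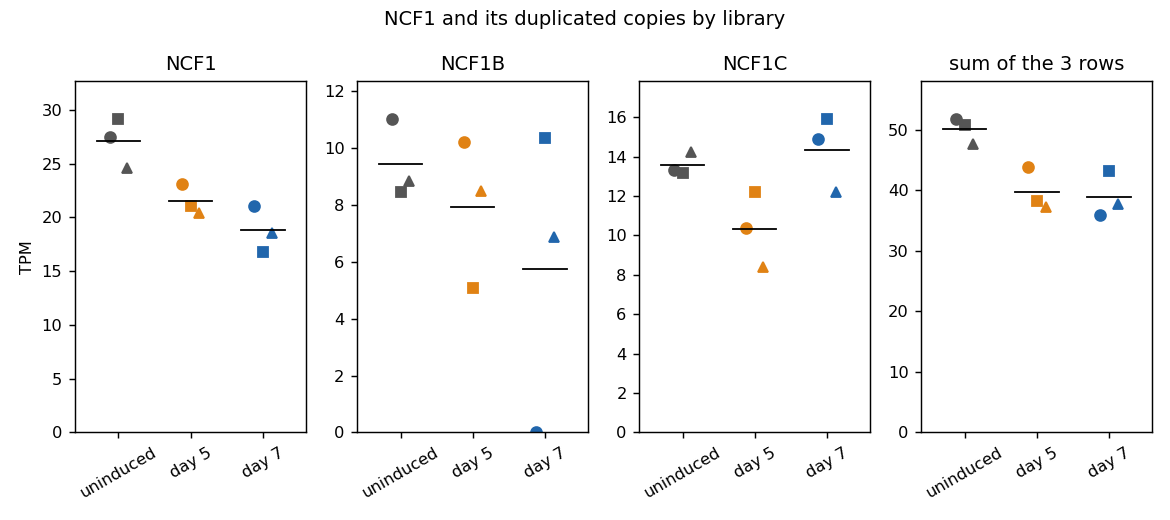
TPM of NCF1, its copies NCF1B and NCF1C, and the sum of the 3 rows, with 1 point per library (circle, square and triangle for replicate numbers 1, 2 and 3) and a bar at each group mean. In the NCF1 panel and in the sum all 6 induced libraries lie below the 3 uninduced ones; NCF1B is listed at 0 in day 7 replicate 1.

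The other oxidase genes overlapped between the groups. CYBA, the membrane subunit shared by several NOX enzymes, was at 292, 247 and 227 TPM uninduced, 233, 226 and 189 at day 5, and 232, 199 and 229 at day 7; its difference was -0.24 at day 5 (SE 0.131, 95% interval -0.53 to 0.06) and -0.21 at day 7 (SE 0.131, interval -0.50 to 0.09). NCF4, a cytosolic subunit that binds a membrane lipid, was at 5.97, 6.79 and 6.89 TPM uninduced, 7.82, 5.89 and 6.47 at day 5, and 6.14, 3.16 and 6.24 at day 7. RAC2, the blood-cell GTPase that activates the complex, was at 116, 84.7 and 108 TPM uninduced, 151, 80.9 and 104 at day 5, and 117, 86.4 and 127 at day 7, with replicate 2 lowest in every group. The catalytic subunit CYBB was at 0 to 0.0803 TPM in the 9 libraries. The transcripts of CYBA, RAC2, NCF1 and NCF4 were present at 3.16 TPM or more in every library, while that of CYBB stayed below 1 TPM in all 9.

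The wider oxidase list of 19 genes had 8 past the filter, and none of these passed the test in any of the 4 induction comparisons. RAC1, the widely expressed relative of RAC2, was at 117 to 146 TPM, and CYBC1, a chaperone of the CYBB and CYBA dimer, had group means of 202 ± 11.1, 184 ± 6.49 and 189 ± 22.2 TPM (SD, n = 3). HVCN1, the proton channel that balances charge during oxidase activity, had means of 23.8 ± 4.18, 21.2 ± 3.68 and 17.4 ± 6.82 TPM. NOX1, NOX3, NOX4, NOX5, DUOX1 and DUOX2, the alternative catalytic subunits, were below 1 TPM in all libraries, so no catalytic NOX or DUOX subunit on the list reached that level.

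The NRF2 control genes stayed uncalled on induction. NFE2L2 was at 47.3, 36.8 and 45.2 TPM uninduced, 48.6, 45.8 and 44.4 at day 5, and 52.2, 51.1 and 40.1 at day 7. KEAP1, its repressor, was at 61.9, 71.0 and 61.3 TPM uninduced, 56.7, 67.5 and 61.7 at day 5, and 62.2, 61.9 and 64.1 at day 7. The groups overlapped for both genes, and these RNA levels do not report NRF2 activity, which is set largely by protein stability. Among 10 NRF2 partners and related factors 8 were tested and none was called on induction; BACH1, which competes for the same DNA element, had means of 12.9 ± 0.416, 13.7 ± 0.938 and 12.6 ± 2.03 TPM (SD, n = 3).

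No NRF2 target enzyme was called on induction, and for NQO1 and HMOX1 the highest libraries were those numbered 1. NQO1, a quinone reductase, was at 9.28, 4.71 and 5.12 TPM uninduced, 8.19, 5.29 and 4.63 at day 5, and 11.2, 4.66 and 6.78 at day 7. HMOX1, the inducible enzyme that opens haem and frees its iron, was at 14.1, 7.27 and 6.78 TPM uninduced, 10.6, 6.90 and 7.29 at day 5, and 14.5, 6.41 and 7.24 at day 7. In both genes the 3 groups overlapped. HMOX2, the constitutive form, lay between 18.7 and 26.5 TPM, with its lowest value in replicate 3 of each group.

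In the glutathione system no gene was called on induction. GCLC and GCLM, the catalytic and modifier subunits of the rate-limiting ligase, had uninduced, day 5 and day 7 means of 12.8 ± 1.19, 11.9 ± 0.310 and 13.2 ± 0.993 TPM and of 5.59 ± 0.913, 5.18 ± 0.319 and 5.63 ± 0.995 TPM (SD, n = 3). GCLC was higher in every day 7 than in every day 5 library, as 1.85% of all genes were; its day 7 values of 12.6, 14.3 and 12.6 TPM overlapped with the uninduced ones. GSS, which completes glutathione, ranged from 15.3 to 22.0 TPM and GSR, which reduces its oxidised form, from 50.5 to 66.6 TPM. GPX1, the main cytosolic glutathione peroxidase, ranged from 71.2 to 106 TPM. Its pseudogene row GPX1P1 reached 8.05 TPM, the highest of 27 pseudogene rows of the group, of which 5 passed 1 TPM. GPX4, which reduces lipid peroxides in membranes and so protects from ferroptosis, ranged from 244 to 424 TPM.

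GLRX, a glutaredoxin that removes glutathione from protein thiols, was at 60.0, 59.1 and 65.3 TPM uninduced, 69.9, 65.1 and 61.0 at day 5, and 72.0, 70.0 and 69.8 at day 7. The day 7 libraries lay above all uninduced ones, as did those of 1.97% of all genes, and day 5 overlapped with both. The day 7 difference was 0.20 (SE 0.0989, 95% interval -0.02 to 0.42, adjusted p = 1.00 by limma). Of 32 further glutathione genes 25 were tested and none was called on induction. The most abundant of those named by smallest p was GSTP1, a glutathione transferase, at 1957 ± 85.7, 1721 ± 7.06 and 1778 ± 192 TPM (SD, n = 3).

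The thioredoxin and peroxiredoxin genes gave no call on induction either. TXN, the cytosolic thioredoxin, was at 329, 342 and 271 TPM uninduced, 273, 324 and 302 at day 5, and 349, 331 and 284 at day 7. TXNRD1, the selenoprotein that reduces it, was at 122, 108 and 94.3 TPM uninduced, 107, 118 and 106 at day 5, and 142, 116 and 99.98 at day 7. The groups overlapped in both, and the mitochondrial partners TXN2 (97.3 to 111 TPM) and TXNRD2 (3.28 to 5.82 TPM) overlapped too. PRDX3, the mitochondrial peroxiredoxin, had means of 235 ± 32.9, 222 ± 33.3 and 213 ± 12.2 TPM, and PRDX4, the secretory pathway form, of 109 ± 24.9, 112 ± 6.60 and 122 ± 16.4 TPM (SD, n = 3).

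Among the enzymes for superoxide and hydrogen peroxide, SOD2, the mitochondrial manganese enzyme, varied most. It was at 23.0, 47.4 and 34.7 TPM uninduced, 31.2, 43.7 and 28.6 at day 5, and 36.1, 23.4 and 16.5 at day 7. SOD1, the cytosolic copper and zinc enzyme, ranged from 174 TPM in day 7 replicate 1 to 419 TPM in day 7 replicate 2, so a single group spanned the whole range. CAT, the peroxisomal catalase, was at 17.3, 25.4 and 21.1 TPM uninduced, 21.0, 20.3 and 21.9 at day 5, and 16.7, 17.8 and 19.4 at day 7. Every day 7 library was below every day 5 library for CAT, as for 2.46% of all genes, and its difference of -0.22 between them (SE 0.147, 95% interval -0.55 to 0.11) did not pass the test.

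As a group, 19 of 30 genes had a difference below 0 at day 5 against 54.7% of all tested genes, 19 at day 7 against 55.1%, and 10 for day 7 against day 5 against 51.2%. The median difference of the 30 was -0.06 at day 5 and -0.04 at day 7, and that of all 15045 genes was -0.02 at both, on the log2(TPM + 1) scale. For both days together, which reuses the same libraries, 23 of 30 were below 0. The share of all genes is not given for it. The median there was -0.05, against -0.02 for all genes. For the 4 genes of smallest p at day 5, the estimates were NCF1 and CYBA as above, GSR at -0.14 (SE 0.123) and SRXN1 at -1.27 (SE 1.25).

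**Figure D3:**
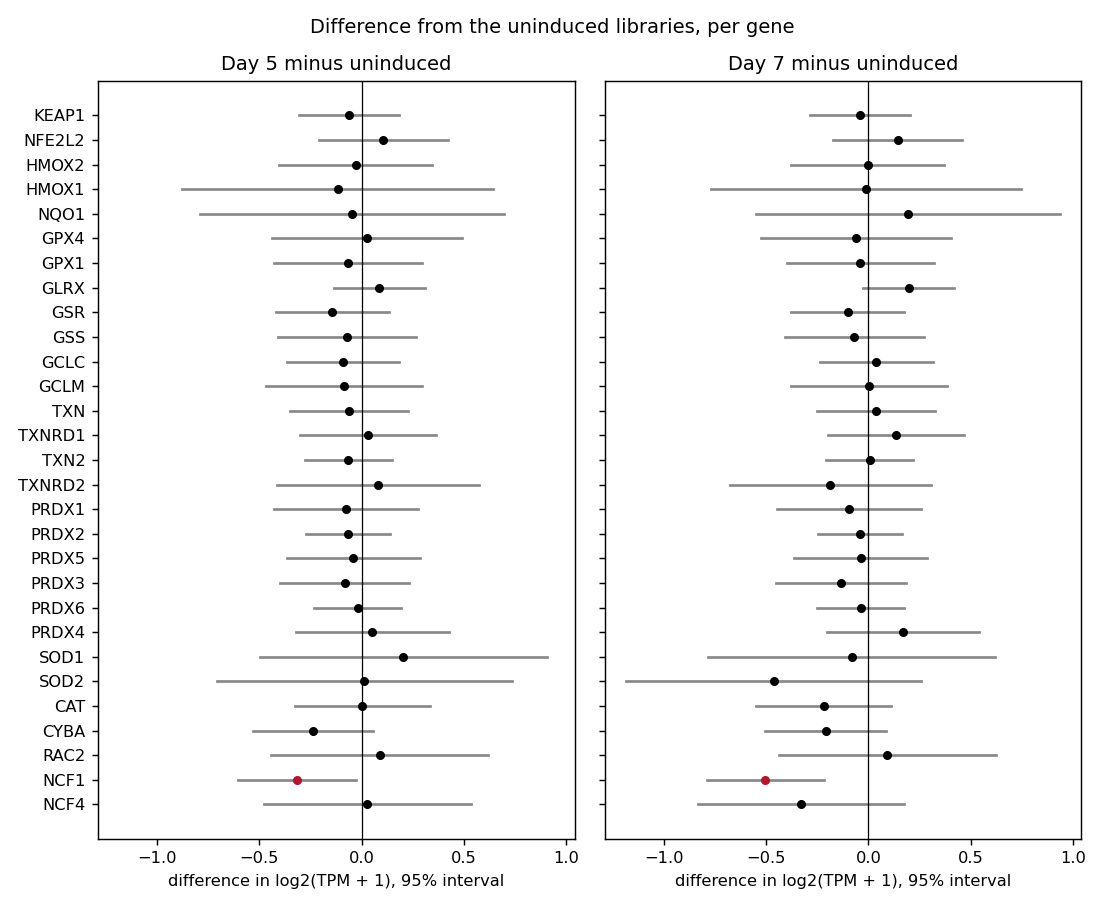
Difference of log2(TPM + 1) from the uninduced libraries (points) with its 95% interval (bars) at day 5 and day 7 for 29 genes; SRXN1, whose interval runs from -4.08 to 1.54 at day 5, is left out for scale. Red marks an unadjusted p under 0.05, which holds for NCF1 at both days, and no gene passes the adjusted threshold.

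SRXN1, sulfiredoxin, reduces peroxiredoxins that peroxide has over-oxidised. Its row was at 12.3, 0.260 and 9.81 TPM uninduced, 9.32, 0.0842 and 0.155 at day 5, and 12.6, 10.8 and 0.214 at day 7. High and low libraries occurred in all 3 groups. A further row, AL121758.1, chosen after its values were seen, mirrored it: it was listed at 0 in the 5 libraries where SRXN1 was 9.32 to 12.6 TPM, and stood at 8.99 to 10.2 TPM in the 4 libraries where SRXN1 was 0.0842 to 0.260 TPM. The sum of both rows was 9.20 to 12.6 TPM in the 9 libraries, with means of 10.7 ± 1.43, 9.69 ± 0.526 and 10.9 ± 1.70 TPM (SD, n = 3). No library had both rows above 1 TPM, and the cause of the switch was not tested; the SRXN1 row alone gives no usable comparison.

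**Figure D4:**
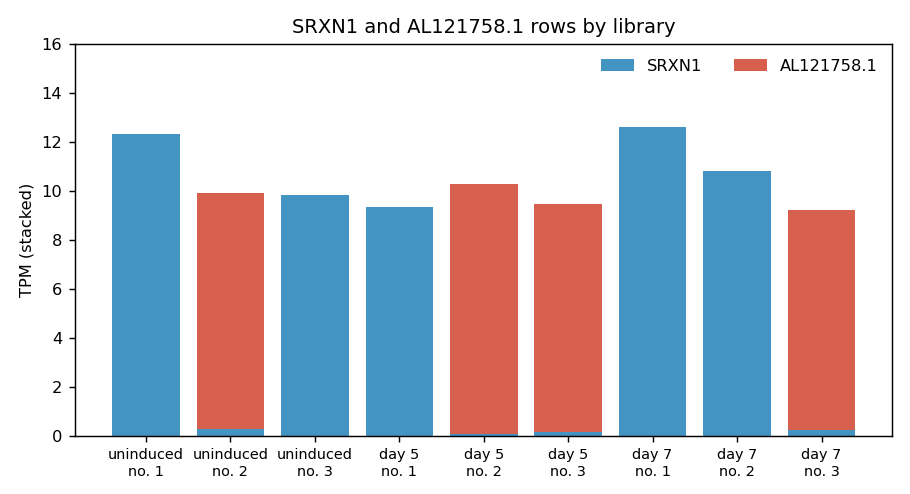
TPM of the SRXN1 row (blue) and the AL121758.1 row (red), stacked, in each of the 9 libraries. The bars change colour between libraries of the same group while their summed height stays between 9.20 and 12.6 TPM.

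The comparison by replicate number asks which genes shared a level among libraries of the same number, with the group held in the model. HMOX1 (F = 23.7, adjusted p = 0.0183), NQO1 (F = 18.4, adjusted p = 0.0253) and RAC2 (F = 12.2, adjusted p = 0.0432) passed limma's F test. That was 3 of 30 genes, against 12.6% of all genes called, so the group's share was close to the background. The count rested on single libraries: it was 0 when uninduced replicate 1 or 2, day 5 replicate 2, or day 7 replicate 1 or 2 was left out, 1 without uninduced replicate 3, 2 without day 5 or day 7 replicate 3, and 5 without day 5 replicate 1.

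Between replicate numbers 2 and 1, HMOX1, NQO1, RAC2, GPX4 and PRDX5 were lower in number 2, which was 5 of 30 genes, and none was higher; of all genes 17.6% were called, 8.55% as lower. HMOX1 averaged 13.1 ± 2.14 TPM in the libraries numbered 1 and 6.86 ± 0.431 in those numbered 2 (SD, n = 3), a difference of -0.83 (SE 0.136, adjusted p = 0.0102 by limma). NQO1 averaged 9.55 ± 1.52 and 4.89 ± 0.353 TPM, also a difference of -0.83 (SE 0.148, adjusted p = 0.0127 by limma). RAC2 averaged 128 ± 19.9 and 84.0 ± 2.83 TPM (-0.59, adjusted p = 0.0207 by limma).

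GPX4 averaged 388 ± 52.3 and 276 ± 30.4 TPM (-0.48, adjusted p = 0.0399 by limma). PRDX5, a peroxiredoxin of mitochondria and peroxisomes, averaged 302 ± 16.7 and 246 ± 11.2 TPM (-0.29, adjusted p = 0.0404 by limma). The count of 5 became 2 without day 5 replicate 2, 3 without any 1 of the uninduced libraries or day 5 replicates 1 or 3, and 6 without day 7 replicate 1. Of 15 alternatives of this contrast, HMOX1 and NQO1 were called in all, RAC2 in 12, GPX4 in 6 and PRDX5 in 5.

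For numbers 3 against 1, where 0.120% of all genes were called, none of the 30 passed; at an unadjusted p under 0.05 there were 7 of 30, against 12.7% of all genes, all lower in number 3 and led by HMOX1 (7.10 ± 0.278 TPM in the libraries numbered 3, difference -0.79, adjusted p = 0.0946 by limma) and NQO1 (5.51 ± 1.13 TPM, -0.70, adjusted p = 0.130). For numbers 3 against 2, where 7.82% were called, none passed, and 3 of 30 had an unadjusted p under 0.05, against 28.2% of all genes. Every library numbered 1 was above all 6 others for GPX1, HMOX1, NQO1 and PRDX5, which is 4 of 30 genes, against 6.81% of all genes; for GPX1 the gap was that between 89.8 and 89.7 TPM. Every library numbered 1 was below the others for PRDX6 (1 of 30, against 3.79% of all genes). Those numbered 2 were below all others for GPX4 and RAC2 (2 of 30, against 9.72%), and those numbered 3 for GSR, HMOX2 and TXNRD1 (3 of 30, against 3.28%).

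Genes of the same pathways outside the group, on lists chosen with earlier results of these data known, were tested in the same fit. Of 98 tested genes on the 8 lists, 22 passed the F test for replicate number (22.4%, against 12.6% of all genes), and 0 passed in each of the 4 induction comparisons by limma, where an unadjusted p under 0.05 was reached by 1 at day 5, 2 at day 7, 3 for day 7 against day 5 and 1 for both days together, against 1.99%, 2.24%, 1.68% and 2.16% of all genes. Between numbers 2 and 1 the calls were 2 lower of 8 tested NRF2 partners, 4 lower and 1 higher of 13 NADPH supply genes, 6 lower and 3 higher of 25 further glutathione genes, 2 lower of 16 thioredoxin-related genes, 2 lower of 12 detoxifying enzymes, 3 lower of 8 iron and haem genes, 1 lower and 1 higher of 8 oxidase genes and 1 lower of 8 genes of selenoprotein synthesis, against 8.55% lower and 9.05% higher among all genes. Most abundant among them were FTL and FTH1, the ferritin chains that store iron, which are NRF2 targets as HMOX1 is. FTH1 was at 1886, 1659 and 2106 TPM in the libraries numbered 1 (uninduced, day 5, day 7), at 592, 702 and 884 in those numbered 2, and at 704, 651 and 847 in those numbered 3. FTL was at 2949, 2600.0 and 3061 TPM in the libraries numbered 1, at 1249, 1291 and 1431 in those numbered 2, and at 1591, 1652 and 1834 in those numbered 3.

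All libraries numbered 1 were above the others for both ferritin genes, which have many processed pseudogenes, so that their rows are uncertain. Number 2 minus number 1 was -1.39 for FTH1 (SE 0.0949, adjusted p = 0.00111 by limma) and -1.12 for FTL (SE 0.0670, adjusted p = 7.2e-04). They were also the genes of the wider lists called for number 3 against number 1, at -1.36 (adjusted p = 0.0197 by limma) and -0.76 (adjusted p = 0.0202). BLVRB, biliverdin reductase B, averaged 59.2 ± 4.40, 33.8 ± 2.70 and 49.7 ± 4.40 TPM by number (SD, n = 3). BLVRA, biliverdin reductase A, was listed at 0 in every library.

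SLC7A11 and SLC3A2, which feed glutathione with cystine, were also low in number 2, as were CHAC1 and SESN2. Other genes went the opposite way: of the 25 further glutathione genes tested, 6 were called lower in number 2 than in number 1 and 3 higher. SLC7A11, the light chain of the cystine importer, averaged 7.00 ± 1.04, 1.32 ± 0.427 and 3.60 ± 0.368 TPM in numbers 1, 2 and 3 (SD, n = 3), and its partner SLC3A2 averaged 299 ± 9.05, 180.5 ± 15.7 and 247 ± 19.0 TPM. CHAC1, which degrades glutathione, averaged 30.9 ± 3.35, 5.24 ± 2.50 and 16.6 ± 3.50 TPM. SESN2, a sestrin induced by stress, averaged 38.9 ± 2.41, 11.0 ± 3.13 and 24.0 ± 3.25 TPM. Numbers 2 and 1 differed by -1.79, -0.73, -2.44 and -1.77 for SLC7A11, SLC3A2, CHAC1 and SESN2 (adjusted p = 0.00149, 0.00339, 0.00299 and 0.00173 by limma).

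SQSTM1, an NRF2 target that also sequesters KEAP1, averaged 217 ± 6.12, 136 ± 4.46 and 167 ± 4.73 TPM. In the opposite direction, ARHGDIB, which holds RAC proteins inactive in the cytosol, averaged 212 ± 38.6, 372 ± 28.2 and 262 ± 21.6 TPM, higher in number 2 than in number 1 by 0.82 (SE 0.0772, adjusted p = 0.00226 by limma). Of the 13 tested NADPH supply genes 4 passed the F test, against 12.6% of all genes: TALDO1, NADK2 and MTHFD2, which were lower in number 2 than in number 1, and MTHFD1, which was higher. The summed level of the B cell markers was 1832 to 1938 TPM in the libraries numbered 1 and 1942 to 2251 TPM in the other 6, and its part in these differences was not tested.

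**Figure D5:**
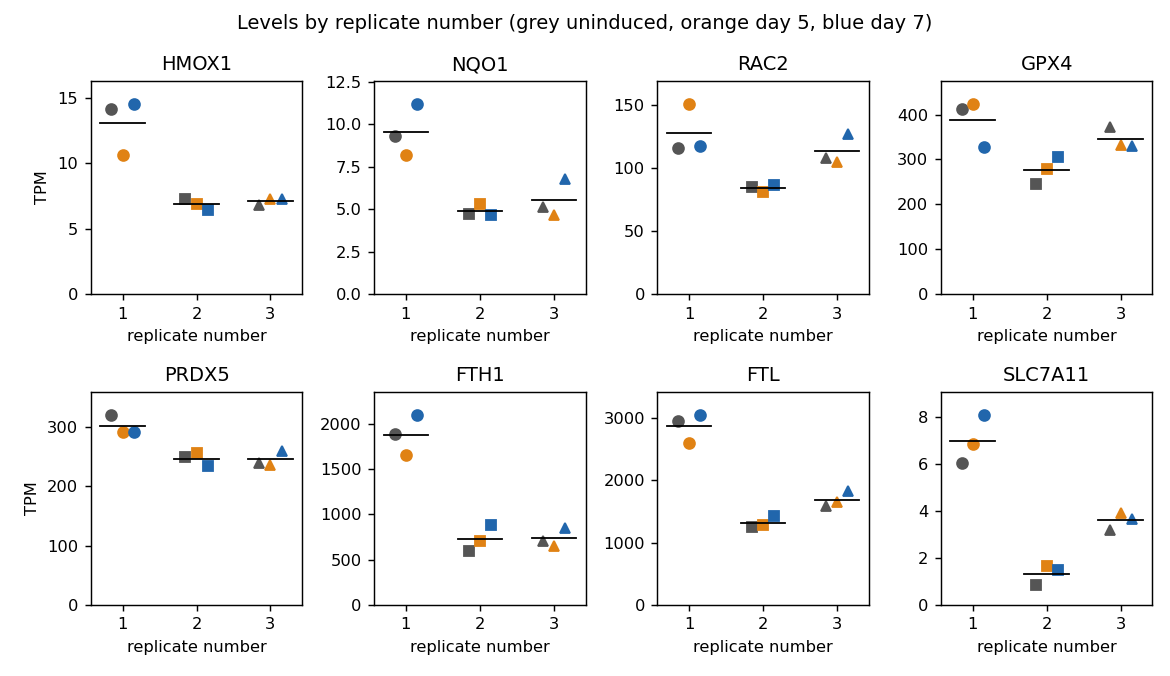
TPM by replicate number for 5 genes of the group (HMOX1, NQO1, RAC2, GPX4, PRDX5) and 3 related genes (FTH1, FTL, SLC7A11), with 1 point per library, grey for uninduced, orange for day 5 and blue for day 7, and a bar at each mean of 3. The libraries numbered 1 lie highest for HMOX1, NQO1, PRDX5, FTH1, FTL and SLC7A11, and those numbered 2 lowest for RAC2, GPX4, FTL and SLC7A11.

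In the wider lists the smallest unadjusted p at day 5 and at day 7 belonged to ACO1, the cytosolic aconitase that becomes an iron regulatory protein. It was at 3.72, 2.66 and 4.37 TPM uninduced, 2.79, 1.29 and 1.72 at day 5, and 1.85, 0.911 and 1.73 at day 7. Its difference at day 7 was -0.88 (SE 0.258, adjusted p = 1.00 by limma). All 3 day 7 libraries were below the uninduced ones, and the gene did not pass the test. Among all genes, day 7 and uninduced libraries did not overlap, in either direction, for 6.13%. The ACO1 level was low, and day 7 replicate 2 lay below the 1 TPM of the expression filter. CBR3, a carbonyl reductase, had means of 3.64 ± 1.05, 3.32 ± 0.728 and 1.81 ± 0.480 TPM (SD, n = 3) and did not pass either.

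The peak list asks where chromatin signal in Z138 WT exceeded that in the induced clone. None of the 31 genes had a peak within its span or 10 kb around it, nor within 100 kb. The nearest was 115 kb from NCF1 (chr7:74774011-74789315), a peak at chr7:74904712-74905052 (hg38) with the authors' -log10 p of 2.51. A peak within 1 Mb was found for 2 of the genes, NCF1 and TXNRD2, and 6 genes lie on chromosomes that carry no peak. With 1 library a side, the list has no replicate check.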

How the data were processed

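RNA was measured in 9 libraries of Z138 # 7 (TruSeq stranded mRNA kit, per the labels' protocols). The deposited values are TPM, made by the authors and normalised per length and to the same total per library; the submitters' processing notes name HISAT2 2.1, StringTie 1.3.4, Genrich 1.0, DESeq2, deepTools, ChIPseeker and hg38, without roles. The deposited peak list gives each peak's position and -log10 p, by the authors' caller. Which annotation release was used, and whether strand was, is not given in the sources used here.

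Genes at 1 TPM or more in at least 3 libraries (15045 of 60656 rows) were tested on log2(TPM + 1), which understates changes of low genes, with limma 3.58.1 in R 4.3.3 (trend on intensity, all 9 libraries in 1 fit, group as the term, replicate number added for the number comparisons). P-values were Benjamini-Hochberg adjusted over all tested genes, with a threshold of 0.05; levels are means ± SD. The script was tested on simulated data. Table columns named Day0 were taken as the uninduced libraries of the same number. Where a symbol had several rows, the row with the highest mean was used. All genes of the group are named; per comparison those called, or else the 4 with the smallest p, get most detail, and from each wider list up to 4 called genes, or else the 2 with the smallest p, could be named. BACH1, RAC1, BLVRA and the NOX and DUOX genes were named outside that rule. The genes and lists were chosen with earlier results of these data known.

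Alternatives changed the pseudocount (0.1), the filter (none, 5 TPM), scaling, trend, block, groups fitted and each library; summing the NCF1 copies, or SRXN1 with AL121758.1, was added after seeing the data.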

Additional observations from a re-analysis of the deposited data

How the results depend on the processing

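No direction reversed for any gene or count listed here. Over all genes, the day 5 count of 1 became 3 with no filter, the day 7 count of 0 became 1 with no filter and 4 with only the 2 groups fitted, the day 7 against day 5 count of 1 became 4 and 5 under these settings, and the count of 1 for both days became 0 with no filter. For replicate number, 1903 became 368 with no filter, 1038 with no trend and 20 in only the 6 induced libraries; the group's 3 genes became 0 with no filter and 0 in the 6 induced libraries. For numbers 2 against 1, 2648 became 1227 with no filter, and the group's 5 genes became 2 with no filter and 3 with no trend. For numbers 3 against 1, 18 became 0 with no filter, 44 at a minimum of 5 TPM and 0 with no trend; for 3 against 2, 1177 became 4 with no filter and 236 with no trend. The cause of these moves was not tested.

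Leaving out each library in turn gave 1 to 3 genes at day 5, 0 to 3 at day 7, 1 to 3 for day 7 against day 5, 1 to 4 for both days, 251 to 1620 for replicate number, 717 to 2258 for numbers 2 against 1, 0 to 10 for 3 against 1 and 1 to 1923 for 3 against 2. For the 30 genes the ranges were 0 to 0 in every induction comparison and for 3 against 1, 0 to 5 for replicate number, 2 to 6 for 2 against 1 and 0 to 1 for 3 against 2, where leaving out day 5 replicate 1 let RAC2 pass. The design text does not say that an uninduced library shares its vial or day with the induced libraries of its number, and 8 of 9 same-number pairs, not every pair, had deviations from the group means correlated above 0.1 (0.0805 to 0.436, against -0.414 to 0.186 for other pairs), so the numbers were not used to pair libraries in the tests of induction. With the replicate block, calls over all genes were 1, 0, 1 and 1 in the 4 induction comparisons and none was a gene of the group; at an unadjusted p under 0.05 the block gave 2, 2, 0 and 2 of the 30 genes in day 5, day 7, day 7 against day 5 and both days, and 771, 899, 591 and 904 of all genes. As a hint from the data, in 16 of 18 checks of a library against another group its deviations correlated best with its own number there. NCF1 stayed below 0 in all 18 alternatives at day 5 (-0.38 to -0.26) and day 7 (-0.58 to -0.36), with adjusted p between 0.668 and 1.00. Under replicate number, HMOX1 stayed called in 10 of 17 alternatives, NQO1 in 9 and RAC2 in 6.

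Depth is unknown from TPM, 3 libraries a group limit the precision, and low rows such as CYBB and SRXN1 allow no firm comparison. The number of genes past the filter and of genes near a peak did not move under their alternatives.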
